A study of Oryza sativa with 36 samples.

Results

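*LIS* and *DXPS* are 2 rice genes of terpenoid synthesis, and their transcripts were followed in seedling shoots of 12 groups. The array holds 1 probe set for *LIS* (LOC4328124, chromosome 2) and 1 for *DXPS* (LOC4342614, chromosome 7), among 17905 genes that its annotation ties to probe sets. Neither probe set is shared with another gene. The pair was chosen by measured values, namely their rise under infestation and between 6 and 24 h in untreated plants. Differences of those kinds are therefore described here without a test. The choice was made with results of all 12 groups known. Tests of other differences are thus no independent support either.

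Linalool synthase, the product of *LIS*, makes the monoterpene alcohol linalool, a scent compound that rice gives off when insects feed on it. Its substrate, geranyl diphosphate, is built in the plastid from the isoprene units of the methylerythritol phosphate (MEP) pathway, which also feeds chlorophyll, carotenoids and diterpenes. *DXPS* is 1-deoxy-D-xylulose 5-phosphate synthase, the enzyme that opens this pathway. Plants carry several genes for it, and the rice gene *CLA1* (LOC4338768, chromosome 5), named after the *Arabidopsis* gene whose loss gives albino plants, encodes another copy that the annotation also lists under the name DXPS.

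The shoots came from 2-week-old seedlings of RH ('Rathu Heenati'), an *indica* variety resistant to the brown planthopper (BPH), and of TN1 ('Taichung Native 1'), an *indica* variety susceptible to it. The seedlings were infested with BPH (P, about 100 nymphs per pot, 10 per seedling), pricked with a needle at the base (N, 15 times per plant) or grown naturally without treatment (C), and were collected at 24 or 6 h. Groups are named by variety, hours and treatment: R24P, R24N, R24C, R6P, R6N and R6C for RH, and T24P, T24N, T24C, T6P, T6N and T6C for TN1. Each group had 3 arrays, each of RNA pooled from a pot of 10 seedlings, so that p-values measure the spread between pots. RH and TN1 are 1 variety each, so that resistance and any other difference between these lines cannot be told apart. The sources mention a netted cage with the infestation and leave unclear whether the other pots were caged, and its part in the results was not tested. The plants sampled at 24 and 6 h also differed in the hour of the day, and hours since treatment and hour of the day cannot be told apart either.

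Array medians lay between 35.8 and 39.8 intensity units, and every array correlated with the others of its group at an r of at least 0.988 over all probe sets. The labelled tissue was shoots, and the small Rubisco subunit gene *RBCS* ranged from 17690 to 20930 over the 36 arrays and the light-harvesting gene *CAB2R* from 15390 to 19650, the 2 of 6 listed shoot markers that were measured. Of 4 listed root markers 1 was measured, the silicon transporter gene *LSI1*, at 103 to 229. In whole shoots, fewer cells of a type and less RNA per cell cannot be told apart.

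**Figure D1:**
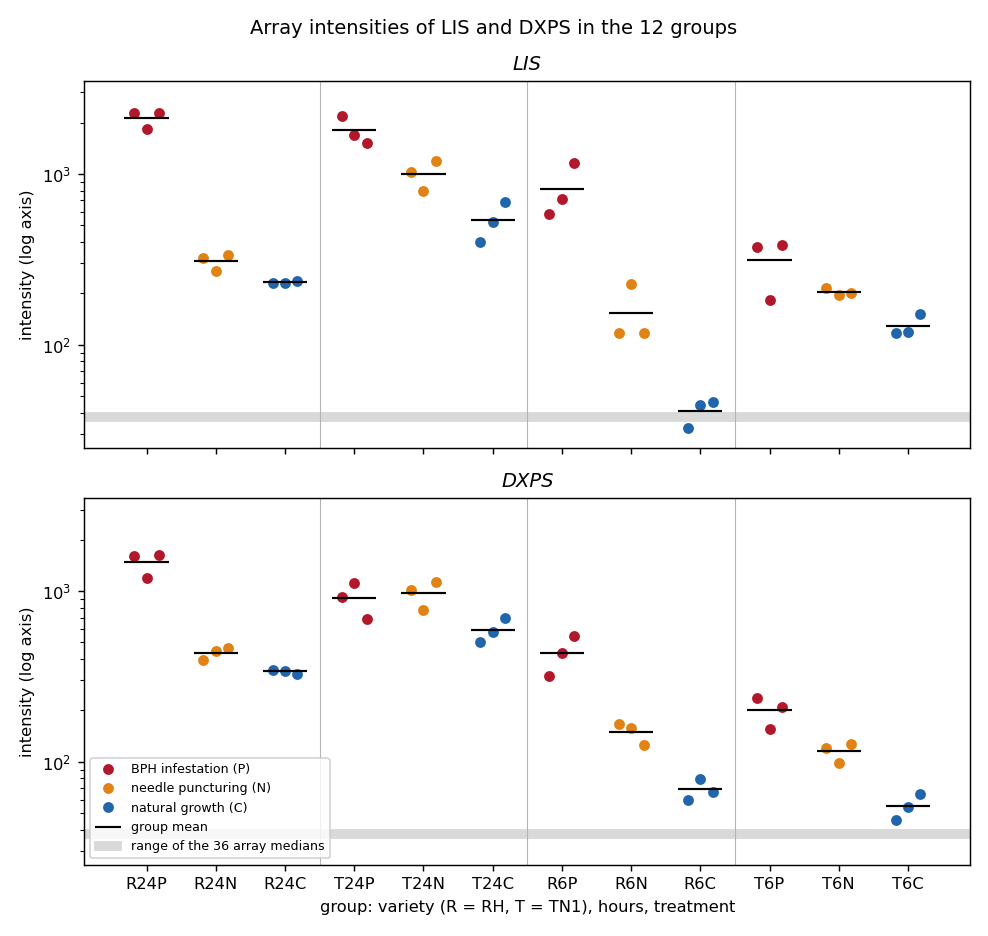
Intensity of *LIS* (upper panel) and *DXPS* (lower panel) on each of the 36 arrays, on a log axis, by group. Points are arrays (1 pot of seedlings each), black bars are group means, and the grey band is the range of array medians. In RH the infested arrays stand far above the punctured and untreated ones at both times, and the *LIS* signal of untreated RH at 6 h lies around the grey band.

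*LIS* was highest in infested RH at 24 h and lowest in untreated RH at 6 h, with group means of 2130 ± 251 in R24P and 41.1 ± 7.46 in R6C (SD, n = 3 each). The 3 arrays of R24P read 2261, 1840 and 2288. Those of R24N read 323, 271 and 338, and those of R24C read 229.9, 229.8 and 237.3, so that the infested plants stood apart and the punctured plants were just above the untreated ones without overlap. At 6 h, the 3 arrays of R6P read 587, 710 and 1156. Those of R6N read 118, 226 and 118, and those of R6C read 32.6, 44.5 and 46.3. The 3 treatments did not overlap in RH at 6 h either, although replicate 2 of R6N stood well above the other two. The R6C signals lay on either side of the range of array medians, and no detection calls were used here, so a fold change against R6C may be a lower bound.

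In TN1 the *LIS* signal was less spread among treatments. The 3 arrays of T24P read 2188, 1698 and 1511, those of T24N read 1030, 791 and 1194, and those of T24C read 400.0, 523 and 685. The 3 treatments were again in the order infested, punctured, untreated with no overlap. At 6 h the arrays of T6P read 373, 184 and 385, those of T6N read 215, 196 and 199.99, and those of T6C read 117, 119 and 151. Here infested and punctured plants overlapped, since replicate 2 of T6P lay below all 3 arrays of T6N, and both treatments lay above untreated TN1.

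*DXPS* followed a similar course, with its highest mean in R24P (1473 ± 249) and its lowest in T6C (55.1 ± 9.85; SD, n = 3 each). In RH at 24 h the arrays of R24P read 1614, 1186 and 1620, those of R24N read 396, 445 and 466, and those of R24C read 347, 342 and 325. At 6 h the arrays of R6P read 317, 434 and 543, those of R6N read 166, 157 and 126, and those of R6C read 59.8, 79.9 and 67.1. At each time the order infested, punctured, untreated held in RH without overlap.

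In TN1 that order held at 6 h only. The 3 arrays of T6P read 238, 156 and 209, those of T6N read 121, 99.0 and 127, and those of T6C read 45.5, 54.7 and 65.2, with no overlap among the treatments. At 24 h the arrays of T24P read 917, 1110 and 688, those of T24N read 1010, 775 and 1123, and those of T24C read 501, 579 and 697. Infested and punctured TN1 overlapped in *DXPS* signal at 24 h, and the lowest infested array lay inside the range of untreated TN1.

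Ranked by group mean, *LIS* ran R24P, T24P, T24N, R6P, T24C, T6P, R24N, R24C, T6N, R6N, T6C and R6C. The ranges of R24P and T24P overlapped, as did those of T24N and R6P, R6P and T24C, T6P and R24N, T6N and R6N, and R6N and T6C, and the other neighbours in this order were separate. *DXPS* ran R24P, T24N, T24P, T24C, R24N, R6P, R24C, T6P, R6N, T6N, R6C and T6C. Neighbours whose ranges overlapped there were T24N and T24P, T24P and T24C, R24N and R6P, R6P and R24C, T6P and R6N, R6N and T6N, and R6C and T6C. Untreated RH at 6 h was thus the lowest group for *LIS* by a clear gap, and for *DXPS* its range overlapped that of untreated TN1.

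Needle puncturing against natural growth asks how much of a response mechanical wounding gives without the insect. This contrast is not named for the choice, but the pair was chosen with results of these data known. It also uses the same untreated arrays, so its tests are not independent of that choice. At 6 h those arrays are the low side of both rises named for the choice. A low signal there raises this contrast too. In RH at 6 h the log2 signal of *LIS* rose by 1.85 with puncturing (SE 0.256, limma's adjusted p = 8.21e-05), a 3.6-fold change, and that of *DXPS* by 1.12 (SE 0.194, adjusted p = 0.00205), a 2.17-fold change. Both genes were thus called higher in a comparison in which 0.156% of all 57194 probe sets were. For genes chosen by their rises from R6C, that share is not a fair background. The methods name a test and state no adjustment for it. Run on the compared groups alone with an adjustment added, that test kept neither call (adjusted p = 0.397 for *LIS* and 0.356 for *DXPS*). Nor did it keep the call of *DXPS* in TN1 that follows (adjusted p = 0.168). At the unadjusted p of that test these calls held (0.00626, 0.00296 and 0.00445). In TN1 at 6 h *DXPS* rose by 1.08 in T6N/T6C (SE 0.194, adjusted p = 0.00122), where 0.385% of probe sets were called higher. *LIS* was 0.67 higher in T6N than in T6C (95% interval 0.14 to 1.19, adjusted p = 0.245 from limma) and was not called. All 3 punctured arrays lay above all 3 untreated ones, and the share of probe sets that do so was not counted. The rises of *DXPS* at 6 h in both varieties lay close to the 2-fold threshold. With 32 added to each intensity before log2 they were 0.84 in RH and 0.76 in TN1, below it, and without replicate 1 of T6C the rise in TN1 was 0.94.

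At 24 h neither gene was called under puncturing. *LIS* differed by 0.41 in R24N/R24C (95% interval -0.11 to 0.93) and by 0.92 in T24N/T24C (0.40 to 1.44), and *DXPS* by 0.36 (-0.03 to 0.76) and 0.71 (0.31 to 1.10), with adjusted p between 0.22 and 0.913 from limma. The share of probe sets called higher was 0.021% in RH and 0.0507% in TN1. All 3 punctured arrays lay above all 3 untreated arrays for both genes in both varieties. The share of all probe sets separated in this way was not counted, so nothing is read from it. An interaction term set the puncturing response of RH against the response of TN1. For *LIS* the difference, RH minus TN1, was 1.18 at 6 h (95% interval 0.45 to 1.92, adjusted p = 0.905) and -0.51 at 24 h (-1.25 to 0.23), and for *DXPS* the differences were 0.04 (-0.52 to 0.60) and -0.34 (-0.90 to 0.22), none of them past the threshold. In these terms limma called 8 probe sets of 57194 at 6 h (0.014%) and 0 at 24 h (0%), against 2045 and 2283 at an unadjusted p under 0.05.

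The differences under infestation are a description, because the genes were chosen by them. They exceeded those under puncturing except for *DXPS* in TN1 at 24 h. In RH the *LIS* signal was 4.27 higher on the log2 scale in R6P than in R6C and 3.19 higher in R24P than in R24C, and in TN1 it was 1.21 higher in T6P than in T6C and 1.76 higher in T24P than in T24C. The difference of these responses between the varieties was 3.06 at 6 h and 1.43 at 24 h. For *DXPS* the infested plants were 2.62 and 2.11 higher in RH at 6 and 24 h, and 1.86 and 0.60 higher in TN1. *DXPS* in RH thus exceeded TN1 in its response by 0.76 at 6 h and 1.51 at 24 h. Among all probe sets the rise of *LIS* ranked 5 in RH and 116 in TN1 at 6 h, and 26 in RH and 663 in TN1 at 24 h, the rank of 5 being read against the dim R6C signal. Probe sets called in either direction at 6 h made up 0.416% in RH and 0.329% in TN1, and at 24 h 1.21% in RH and 6.66% in TN1. With 32 added before log2 the *LIS* difference in R6P/R6C was 3.49.

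Set against puncturing instead of natural growth, infestation had a higher *LIS* signal by 2.42 in R6P/R6N and 2.78 in R24P/R24N, and by 0.55 in T6P/T6N and 0.84 in T24P/T24N. For *DXPS* these differences were 1.5 and 1.75 in RH, and 0.78 and -0.11 in TN1. In RH, infested plants were therefore well above wounded plants for both genes at both times. In TN1 at 24 h, the *DXPS* signal of infested and wounded plants differed by less than the spread between replicates, while *LIS* was higher in all 3 infested arrays than in all 3 punctured ones.

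**Figure D2:**
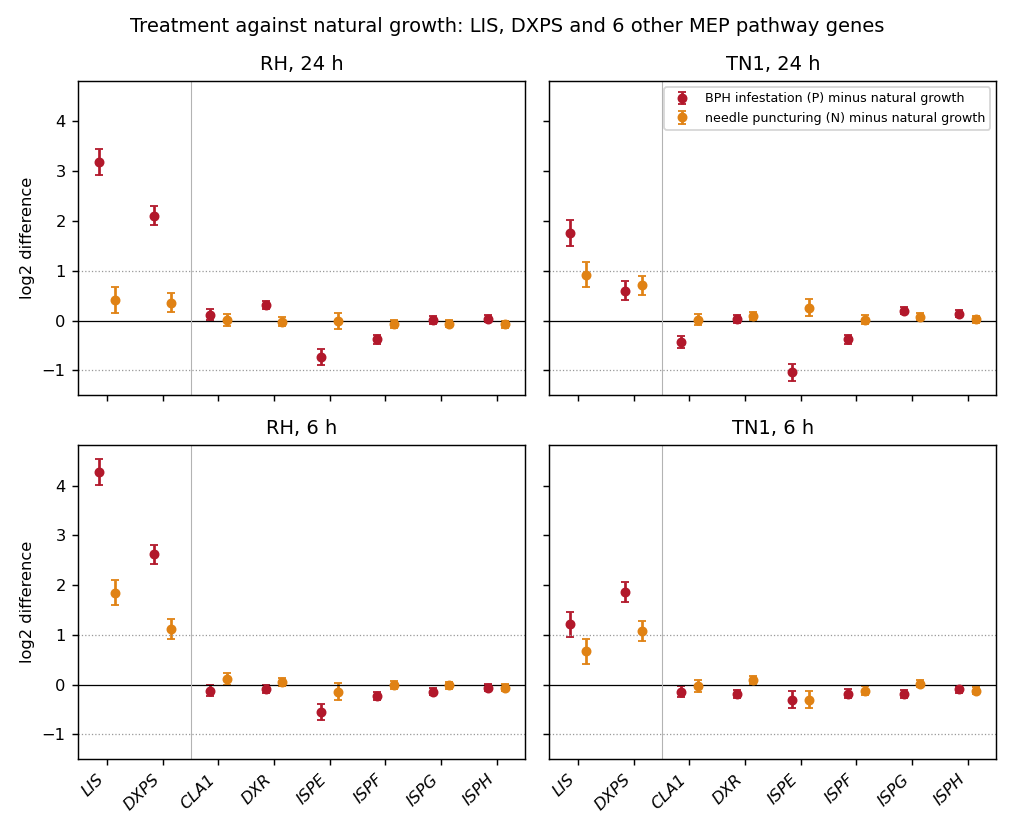
Log2 difference of BPH infestation (red) and of needle puncturing (orange) from natural growth, for *LIS*, *DXPS* and 6 other genes of the MEP pathway, by variety and time. Points are the fitted differences from 3 arrays a group, bars are standard errors, and dotted lines mark 2-fold. The red points of *LIS* and *DXPS* in RH lie between 2.11 and 4.27, and those of the other genes between -1.04 and 0.31 in all panels.

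RH against TN1 asks whether the varieties differ without planthoppers. The untreated arrays used here also entered the choice of the genes, so the tests in untreated plants are not independent of it. A low R6C signal enlarges both rises named for the choice. The adjusted p and the shares in untreated plants are therefore no independent support. Nor are those in punctured plants, since the pair was chosen with results of these data known. *LIS* was lower in untreated RH than in untreated TN1 at both times. The log2 difference was -1.66 in R6C/T6C (SE 0.256, limma's adjusted p = 1.19e-05) and -1.17 in R24C/T24C (SE 0.256, adjusted p = 0.00152), with no overlap of the arrays. Of all probe sets, 1.47% and 1.42% were called lower in RH in these comparisons. In punctured plants *LIS* was lower in RH at 24 h, with a difference of -1.68 in R24N/T24N (adjusted p = 9.83e-06), where 1.5% of probe sets were called lower. At 6 h the difference was -0.47 in R6N/T6N (95% interval -1 to 0.05, adjusted p = 0.365), which did not pass, and 1.57% of probe sets were called lower there. The call in R24C/T24C was lost without replicate 3 of T24C, the highest of that group, when the difference was -0.98. It was also lost with the methods' test and an added adjustment (adjusted p = 0.0853), and held at the unadjusted p of that test (0.00643).

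*DXPS* differed less between the varieties in plants without planthoppers. It was 0.33 higher in R6C than in T6C (95% interval -0.07 to 0.72, adjusted p = 0.403) and 0.37 higher in R6N than in T6N (-0.03 to 0.76, adjusted p = 0.347), neither of which passed. At 24 h the difference was -0.79 in R24C/T24C, with an adjusted p of 0.00485 from limma but under 2-fold. In R24N/T24N the difference was -1.14 (SE 0.194, adjusted p = 5.71e-05 from limma) and was called. That call was lost with the methods' test and an added adjustment (adjusted p = 0.0551). It held at the unadjusted p of that test (0.00278). Under infestation, given without a test, RH was the higher variety. *LIS* was 1.40 higher in R6P than in T6P with no overlap and 0.25 higher in R24P than in T24P with overlapping arrays. *DXPS* was 1.09 and 0.72 higher in RH at 6 and 24 h, with no overlap at either time. For *LIS* at 6 h and for *DXPS* at 24 h, the arrays of RH thus lay wholly above those of TN1 in infested plants and wholly below them in untreated plants. Both sides are values by which the genes were chosen. The share of all probe sets that reverse in this way was not counted, so nothing is read from it.

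The untreated rise between the sampling times belongs to the rule by which the genes were chosen. *LIS* was 2.52 higher on the log2 scale in R24C than in R6C and 2.03 higher in T24C than in T6C, and *DXPS* was 2.30 and 3.43 higher, a 10.8-fold difference for *DXPS* in untreated TN1. In infested plants *LIS* was 1.43 higher in R24P than in R6P and 2.58 higher in T24P than in T6P, and *DXPS* 1.79 and 2.17 higher. Punctured plants are separate arrays, and their rise between the times is not named for the choice. The same comparison was tested in them. The pair was chosen with results of these data known, so these tests are no independent support for the rise. In R24N/R6N *LIS* rose by 1.08 (SE 0.256, limma's adjusted p = 0.00226) and by 2.28 in T24N/T6N (adjusted p = 4.28e-08), and *DXPS* by 1.55 (adjusted p = 3.19e-07) and 3.06 (adjusted p = 1.59e-13). Probe sets called higher at 24 h made up 0.963% in RH and 0.97% in TN1.

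The *LIS* rise in punctured RH lay at the threshold. It was not called with the methods' test and an added adjustment (adjusted p = 0.12), and was called at the unadjusted p of that test (0.0303). Without replicate 1 of R6N the rise was 0.92, and without replicate 3 of R6N it was also 0.92, under 2-fold in each case. The rise of *DXPS* in punctured plants was smaller in RH than in TN1, with a difference of -1.51 (SE 0.274, adjusted p = 0.00745 for the interaction in limma), in a term where 0.171% of probe sets were called. The call was lost with the methods' test of the compared groups alone and an added adjustment (adjusted p = 0.114). It held at the unadjusted p of that test (0.000234). Without replicate 1, 2 or 3 of all groups the call was also lost (adjusted p = 0.15, 0.178 and 0.0875 in limma). For *LIS* the same term was -1.21 (95% interval -1.94 to -0.47, adjusted p = 0.316) and did not pass. In untreated plants, given without a test, the rise of RH minus that of TN1 was -1.12 for *DXPS* and 0.49 for *LIS*.

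Time and infestation can also be set side by side, as a description. In RH the *LIS* signal of infested plants at 6 h (818 ± 299) already exceeded that of untreated plants at 24 h (232 ± 4.31), by 1.75 on the log2 scale and on all 3 arrays. In TN1 the infested plants at 6 h (314 ± 113) remained under the untreated plants at 24 h (536 ± 143), with a difference of -0.81 and on all 3 arrays. For *DXPS* the infested plants at 6 h had 431 ± 113 in RH and 201 ± 41.6 in TN1, against 338 ± 11.4 and 592 ± 98.8 in the untreated plants at 24 h (SD, n = 3 each). In RH 2 of the 3 infested arrays lay above that level, and in TN1 all 3 lay below it.

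**Figure D3:**
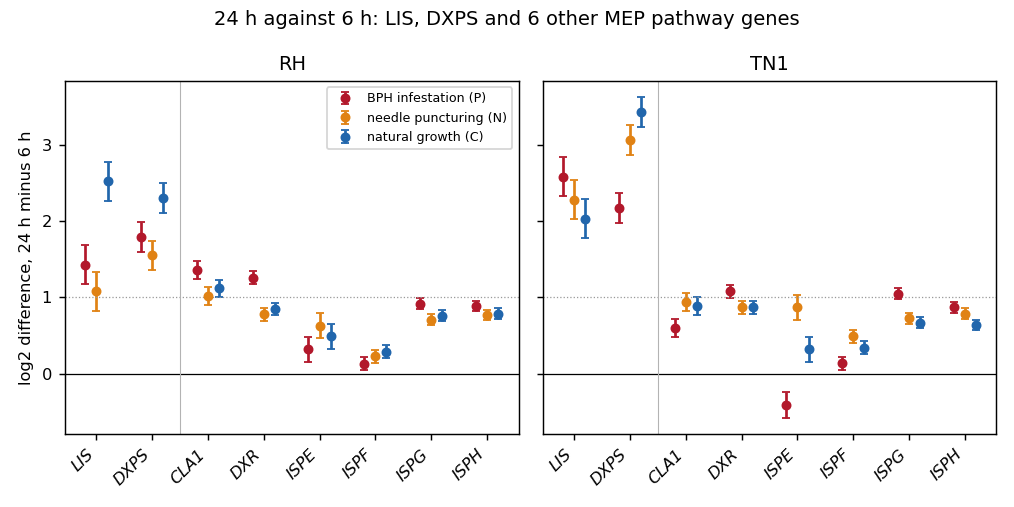
Log2 difference between 24 h and 6 h in infested (red), punctured (orange) and untreated (blue) plants of RH and TN1, for *LIS*, *DXPS* and 6 other MEP pathway genes. Points are fitted differences from 3 arrays a group, bars are standard errors, and the dotted line marks 2-fold. *LIS* and *DXPS* lie between 1.08 and 3.43, and all of the other genes apart from *ISPE* in infested TN1 (-0.41) also lie above 0.

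The other steps of the MEP pathway were read from a list of 9 genes, of which 6 beside *DXPS* were measured. *CLA1* encodes the same first step as *DXPS*, *DXR* the reductoisomerase that follows, *ISPE* a kinase, *ISPF* the cyclase, *ISPG* the synthase of hydroxymethylbutenyl diphosphate and *ISPH* the reductase that releases the isoprene units. None of the 6 genes was called under puncturing in either variety at either time, with log2 differences between -0.30 and 0.26. Of all probe sets, 0.156% in RH and 0.385% in TN1 were called higher under puncturing at 6 h. At 24 h the shares were 0.021% and 0.0507%, so that no call among 6 genes is near the background. Under infestation 0 of 6 were called at 6 h in either variety or at 24 h in RH, where 0.416%, 0.329% and 1.21% of all probe sets were called, so that few or no calls among 6 genes are near the background. In infested TN1 at 24 h, with 6.66% of probe sets called, 1 of 6 was called, *ISPE*, which fell by 1.04 (SE 0.167, adjusted p = 8.43e-06 from limma). This call was lost with 32 added before log2 or with the methods' test and an added adjustment. At the unadjusted p of that test the count was 1 of 6. The median of the list under infestation at 6 h was -0.13 in RH and -0.18 in TN1, beside 0.02 and -0.02 over all probe sets. At 24 h it was 0.03 in RH and -0.17 in TN1, beside -0.03 over all probe sets in each.

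*CLA1* stood at 1571 ± 157 in R6P and 1708 ± 102 in R6C (SD, n = 3 each), a log2 difference of -0.12 (adjusted p = 0.603 from limma), in the comparison where *DXPS* was 2.62 higher. In T24P it was at 2660 ± 540 against 3544 ± 143 in T24C, a difference of -0.43 (adjusted p = 0.00318 from limma) and under 2-fold. A further probe set of *CLA1* with a mean intensity of 42.9 was not called under either treatment. Its signal was 0.42 higher in R24P than in R24C (adjusted p = 0.0201 from limma), under 2-fold, and 0.38 higher in R6P than in R6C (adjusted p = 0.0975). In TN1 its differences under infestation were -0.1 at 6 h and -0.26 at 24 h. *DXR* was 0.31 higher in R24P than in R24C (adjusted p = 0.00886 from limma), also under 2-fold. *ISPE* had a difference of -0.73 in R24P/R24C (adjusted p = 0.00277), under 2-fold too. *ISPF* had a difference of -0.38 under infestation at 24 h in both varieties (adjusted p = 0.00219 in RH and 0.000627 in TN1). *ISPG* was 0.2 higher in T24P than in T24C (adjusted p = 0.0374).

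With sampling time, the list moved in the direction of *LIS* and *DXPS*, by less. All 6 genes were higher in R24C than in R6C and 5 of 6 in T24C than in T6C at an adjusted p under 0.05 from limma, where 9.53% and 8.12% of probe sets passed this way. In untreated plants *CLA1* alone was called with the 2-fold threshold, in R24C/R6C (1.12, adjusted p = 5.24e-09 from limma). The further probe set of *CLA1* was 0.45 higher there (adjusted p = 0.00927 from limma), under 2-fold. The list's median was 0.78 in RH and 0.66 in TN1, beside 0.04 and 0.03 over all probe sets. *DXR*, *ISPG* and *ISPH* were 0.85, 0.76 and 0.79 higher in RH, and 0.87, 0.67 and 0.64 higher in TN1. In infested plants *CLA1* (1.36) and *DXR* (1.26) were called in R24P/R6P, and *DXR* (1.08) and *ISPG* (1.05) in T24P/T6P. In punctured plants *CLA1* was called in R24N/R6N (1.02).

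The variation of the log2 values over the 36 arrays was divided among variety, time, treatment and their combinations, as a description. For *LIS* treatment took 44.3%, time 37.6%, variety by treatment 9.27%, variety 2.95% and the replicates 2.99%. For *DXPS* time took 64.6%, treatment 24.5%, variety by treatment 3.76%, variety 0.101% and the replicates 1.97%. *CLA1*, *DXR*, *ISPG* and *ISPH* had between 86.9% (*CLA1*) and 96.7% (*ISPH*) of their variation in time and at most 2.12% in treatment. *ISPE* and *ISPF* had 43.3% and 37.9% in treatment, and at 24 h both were lowest in the infested plants of each variety.

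Among genes that draw on plastid isoprene units, the diterpene cyclases and the carotenoid pathway were also listed. Of 8 measured diterpene cyclases none was called under infestation at 6 h or in RH at 24 h, near the shares of all probe sets (0.329% to 1.21%), and 3 were called higher in T24P/T24C (6.66% of probe sets called in either direction), *CPS2* by 2.61 (adjusted p = 1.4e-10 from limma), *KSL5* by 1.54 and *CPS4* by 1.5. *CPS2* was at 78.3 in T24P and 12.6 in T24C and *CPS4* at 48.1 and 17.0, so that their T24C signals were below the array medians. *KSL5* also rose in T24N/T24C, by 1.04 (adjusted p = 0.0139). On the carotenoid list 6 genes were measured, among them *CHLP*, which serves the side chain of chlorophyll. The phytoene synthase gene *PSY3* was called in R24P/R24C (1.36, adjusted p = 0.000103 from limma) and T24P/T24C (1.96, adjusted p = 4.8e-08). No other gene of this list was called under either treatment, which among so few genes is near the shares of all probe sets. *LIS* and *DXPS* were higher in infested RH at 6 h, when none of these genes was called. The listed genes of the cytosolic mevalonate pathway, of prenyl diphosphate synthesis and of other mono- and sesquiterpene synthases could not be matched by name and are not analysed here.

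**Figure D4:**
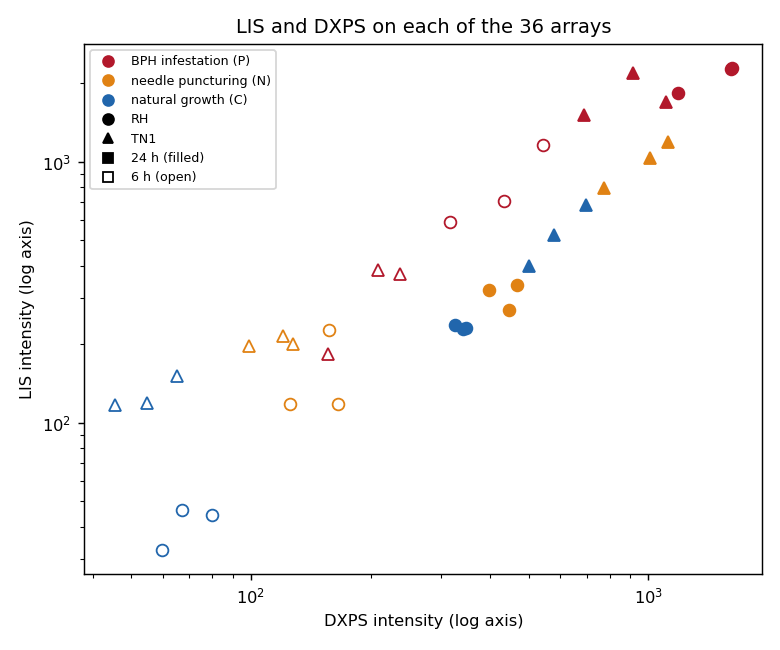
*LIS* intensity against *DXPS* intensity on each of the 36 arrays, both on log axes. Colours mark the treatment, circles RH, triangles TN1, filled symbols 24 h and open symbols 6 h. The arrays run along a common diagonal from untreated plants at 6 h at the lower left to infested RH at 24 h at the upper right, with the 3 arrays of untreated RH at 6 h lowest in *LIS*.

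Over the 12 group means of log2 intensity *LIS* and *DXPS* correlated at r = 0.92 (Spearman's rho 0.95), a description over 12 points of arrays normalized together. Both genes were chosen by the infested and untreated values among these means, so a high r follows in part from the choice and nothing is read from it. Within groups, the same array was lowest for both genes in 9 of 12 groups and highest for both in 6 of 12. Other pairs of probe sets were not counted in this way, so nothing is read from these counts. The 6 other MEP genes had r between -0.25 (*ISPE*) and 0.65 (*DXR*) with *LIS*, and between 0.06 (*ISPE*) and 0.81 (*DXR*) with *DXPS*. With *ISPH* and *ISPG* r was 0.64 and 0.61 for *LIS* and 0.79 and 0.74 for *DXPS*.

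The order of likeness rests on the same group means, including those by which both genes were picked. *DXPS* was the named gene with the highest r to *LIS*, ranking 7 among all other probe sets. After it came *GRXS3*, a glutaredoxin gene at a mean intensity of only 15.6, *MSRB5*, a methionine sulfoxide reductase gene, *AT7*, the cinnamyl alcohol dehydrogenase gene *CAD6*, *AAH*, the cytokinin-activating gene *LOG*, the kinase gene *MAPK6*, *TIP1* and *RPP13-1*, with r between 0.88 and 0.913. For *DXPS* the closest of all probe sets was that of *CAD6* (r = 0.967), followed among named genes by the ascorbate peroxidase gene *APX2*, the leaf width gene *NAL1*, the small heat shock gene *HSP16.0*, the nitrate reductase gene *NIA1*, *WRKY62*, *EGY3*, *RFS*, *LOG* and the heat shock factor gene *HSF24*, with r between 0.921 and 0.938. *CAD6* and *LOG* stood on both lists. *CAD6* averaged 525 ± 49.6 in R24P and 178 ± 6.21 in R24C, and 429 ± 114 in T24P and 292 ± 39.5 in T24C (SD, n = 3 each). *LOG* averaged 1325 ± 135 in R24P and 780 ± 33.6 in R24C, and 1103 ± 35.1 in T24P and 708 ± 43.7 in T24C.

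The genes next to *LIS* and *DXPS* on their chromosomes, 4 to each side in the RefSeq order, were checked for the same pattern. Near *LIS* 5 of them had a probe set, and none was called under infestation or puncturing in the 8 comparisons, with log2 differences between -0.28 and 0.51. Near *DXPS* 3 had a probe set, and none was called under puncturing. Under infestation 1, LOC4342616, was called, at 24 h only, where 1.21% of all probe sets were called in RH and 6.66% in TN1. Under infestation at 6 h 0.416% and 0.329% were called, and under puncturing 0.021% to 0.385% were called higher. No call among so few neighbours is near these shares.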

How the data were processed

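RNA of 36 samples, 3 for each of 12 groups, was hybridised to 1 Affymetrix Rice Genome Array each. The authors deposited linear intensities of 57194 probe sets per array, already summarised and normalized. The submitters' processing notes name RMA and affy, with no version. The condition of each array was read from its label. Intensities were transformed to log2 with no further normalization or filter. limma 3.58.1 in R 4.3.3 was fitted with 1 mean for each group over all probe sets (24 residual degrees of freedom). P-values were adjusted after Benjamini-Hochberg over the whole array. Calls needed an adjusted p under 0.05 and a 2-fold change, or in interaction terms the adjusted p alone. The fit was tested on simulated data. The number of arrays limits the precision.

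Probe sets were named from the platform annotation (22436 with 1 gene, 95 with several, 34663 with none listed), with symbols from RefSeq. Pathway lists were matched by symbol and chromosome, and a gene entered with its probe set of highest mean. Every gene of the MEP list, up to 4 called genes of each other list per treatment comparison, and for each gene of the pair the 10 named probe sets with the highest r over group means are named. The pair and the lists were chosen with earlier results of these data known. Alternatives included a one-way ANOVA on the groups compared, the test the methods name, with and without an adjustment that they do not state. Others were a fit of those groups alone, a replicate block, median centring, quantile normalization, array weights and trended robust variances. An offset of 32, a filter at a mean log2 of 6, an adjusted p under 0.01, another probe set of a gene and leaving out arrays were also tried. Leaving out a replicate number in all groups, and the offset and left-out arrays for the described differences, were added after seeing the data. *LIS* and *DXPS* have no further probe set to compare.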

Additional observations from a re-analysis of the deposited data

Results flagged for a closer look

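Differences of 2 kinds between the varieties stood out for *LIS* and *DXPS*. The rise of *DXPS* between 6 and 24 h in punctured plants was smaller in RH than in TN1, with an interaction of -1.51 on the log2 scale (adjusted p = 0.00745 from limma). This call was lost with the adjusted ANOVA of the compared groups alone (adjusted p = 0.114) and without replicate 1, 2 or 3 of all groups (adjusted p = 0.15, 0.178 and 0.0875 in limma). The difference between RH and TN1 also pointed opposite ways under different treatments, with no overlap of the arrays on either side. *LIS* at 6 h was 1.40 higher in R6P than in T6P, and its log2 difference was -1.66 in R6C/T6C. *DXPS* at 24 h was 0.72 higher in R24P than in T24P, and its log2 difference was -1.14 in R24N/T24N and -0.79 in R24C/T24C. Whether these opposite differences differ from each other was not tested, since the genes were chosen by the infestation values. The share of all probe sets with such opposite differences was not counted.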

How the results depend on the processing

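No result for *LIS* or *DXPS* in the 13 tested comparisons changed its side of the threshold under median centring, quantile normalization, array weights, trended robust variances, a fit of the compared groups alone, the filter at a mean log2 of 6 or an adjusted p under 0.01. The replicate numbers did not pair the samples: in 0 of 10 comparisons did every same-numbered pair correlate above 0.1 (range -0.21 to 0.14), and with the replicate block the values (LIS 1.85 in R6N/R6C, for example) and all calls stayed as they were.

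With the methods' one-way ANOVA and adjustment, the calls of *LIS* in R6N/R6C (1.85, adjusted p = 0.397), R24C/T24C (-1.17, 0.0853) and R24N/R6N (1.08, 0.12) and of *DXPS* in R6N/R6C (1.12, 0.356), T6N/T6C (1.08, 0.168), R24N/T24N (-1.14, 0.0551) and the interaction of variety and time in punctured plants (-1.51, 0.114) were lost; this test takes its spread from the compared groups alone. The methods name the ANOVA but no adjustment. At the unadjusted p of the ANOVA all of these calls held, and the *LIS* interactions of variety with puncturing at 6 h (1.18) and with time (-1.21) passed too. With 32 added before log2, *LIS* in R24N/R6N (0.93) and *DXPS* in R6N/R6C (0.84) and T6N/T6C (0.76) fell below 2-fold, and the described differences of *LIS* were 3.49 in R6P/R6C, 3.02 in R24P/R24C and 1.86 in R24C/R6C, and those of *DXPS* 2.17 in R6P/R6C, 1.41 in T6P/T6C, 1.88 in R24C/R6C and 2.83 in T24C/T6C. This offset shrinks differences of dim signals by construction.

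Leaving out each array of the compared groups, or a replicate number in all groups, gave 0.86 to 1.49 for *LIS* in R24N/R6N, -1.37 to -0.98 in R24C/T24C, 0.94 to 1.24 for *DXPS* in R6N/R6C, 0.91 to 1.2 in T6N/T6C and -1.66 to -1.36 for its interaction of variety and time in punctured plants. These calls were lost in at least 1 such fit, and the highest adjusted p values were 0.061, 0.0572, 0.132, 0.0765 and 0.178. Of fits without a single array, the call of *DXPS* in T6N/T6C was lost without replicate 1 of T6C (0.94), that of *LIS* in R24C/T24C without replicate 3 of T24C (-0.98) and that of *LIS* in R24N/R6N without replicate 1 or 3 of R6N (0.92 each). The difference of the *DXPS* responses to puncturing at 6 h (0.04) lay between -0.09 and 0.17 and so had no settled sign. The single MEP gene called in T24P/T24C was not called with the methods' test after adjustment or with the offset, when the count was 0. At the unadjusted p of that test the count was 1. No detection calls were used here, so the dim signals of *LIS* in untreated RH at 6 h are not shown to be above background.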

Other observations

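The gene LOC4342616, 3 genes from *DXPS* in the RefSeq order and without a further name in the annotation, was the neighbour called under infestation. It rose by 2.35 on the log2 scale in R24P/R24C (adjusted p = 3.38e-05 from limma) and by 3.59 in T24P/T24C (adjusted p = 3.16e-09), at a mean intensity of 52.2 over the 36 arrays. It was not called at 6 h or under puncturing. It was singled out after its values were seen.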
